A study of Rattus norvegicus with 90 samples.

Results

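Primary rat hepatocytes exposed to a low dose of thioacetamide-S-oxide were compared between 24 and 9 h of exposure. The 10 libraries, 5 at each time point, were chosen by the cell type, dose and duration given in their sample labels, out of 90 libraries in the series. All 10 came from hepatocytes of Sprague-Dawley rat liver, used as cells taken from the animal and not as an established line, and the low dose was 0.025 mM. The other hepatocyte groups used here were vehicle cultures, which received maintenance medium alone, and cultures given the high dose of 0.125 mM, each with 5 libraries at 9 h and 5 at 24 h. Vehicle libraries of rat renal cells and cardiomyocytes at 9 h, 5 each, served to choose transcript lists. All 60 libraries of these 2 cell types, from vehicle cultures and from cultures given 0.125 or 0.5 mM (renal cells) and 0.5 or 1.5 mM (cardiomyocytes) for 9 or 24 h, served to check the labelled cell type. The wider study asked whether gene modules that mark organ injury respond alike in exposed cells and in exposed rats, and the comparison described here follows the low-dose response of hepatocytes from an early to a later time point. The study bought its hepatocytes cryopreserved and plated them on collagen. The labels do not say whether the 5 libraries of a group came from separate animals, so that p-values measure only the spread between these samples, which may be technical.

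Thioacetamide is a classical liver toxicant. It is not itself reactive, and cytochrome P450 and flavin-containing monooxygenases of the liver convert it to thioacetamide-S-oxide and then to a further oxidised form that binds to proteins and lipids. Hepatocytes make most plasma proteins and carry out xenobiotic, bile acid and urea metabolism, and hepatocytes placed in culture are known to lose part of this specialised expression with time.

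Each low-dose library held between 27074527 and 33654248 estimated counts at 9 h and between 26782233 and 31923877 at 24 h. Transcripts with Ensembl identifiers took 92.7 to 94.1% of these counts at 9 h and 90.9 to 94.3% at 24 h, and the remainder lay on genomic intervals that were not tested. Between 22105 and 22667 transcripts had at least 1 count in a library at 9 h, and between 22223 and 22598 at 24 h. The deposited files do not pair transcripts with genes, and 0 of 40071 transcripts were matched to a gene name. Results are therefore given by transcript identifier, for a few transcripts in each direction of a comparison, and otherwise by groups of transcripts defined from other libraries of the series. Transcripts were called DEGs when the edgeR p-value, adjusted by the Benjamini-Hochberg method, did not exceed 0.05 and the change was no smaller than 0.59 on the log2 scale (1.51-fold).

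Between 9 and 24 h, 2539 of the 16755 transcripts tested were DEGs at the low dose (15.2%). Of these, 1501 were higher at 24 h (8.96% of those tested) and 1038 were lower (6.2%). The median log2 fold change was 0.90 among the DEGs that rose and -0.86 among those that fell, against 0.016 over all transcripts tested. The change was large for few transcripts. At least 2-fold, 597 rose and 387 fell, at least 4-fold, 84 rose and 80 fell, and at least 8-fold, 19 rose and 17 fell. Without a threshold on size, 8296 transcripts, the 2539 DEGs included, passed the threshold on adjusted p-value. Many differences too small to be called were thus resolved with 5 libraries at each time point. For the 10264 transcripts whose mean log2 CPM over the 10 low-dose libraries was 3 or more, the median coefficient of variation over the 5 libraries was 5.83% at 9 h and 6.29% at 24 h.

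All 5 libraries at 24 h lay on one side of all 5 at 9 h for 2130 of the 2539 DEGs (83.9%), and the same held for 37.7% of all transcripts tested. The transcripts that rose held 4.29% ± 0.085 of all TPM, a measure scaled by transcript length and library size, at 9 h and 7.80% ± 0.194 at 24 h (SD, n = 5). The transcripts that fell went the other way, from 8.32% ± 0.045 to 4.51% ± 0.180 (SD, n = 5). These shares follow from the choice of the DEGs and only describe how much of the RNA they made up. At 24 h the DEGs that rose therefore held more of the TPM than those that fell, and at 9 h they held less.

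**Figure D1:**
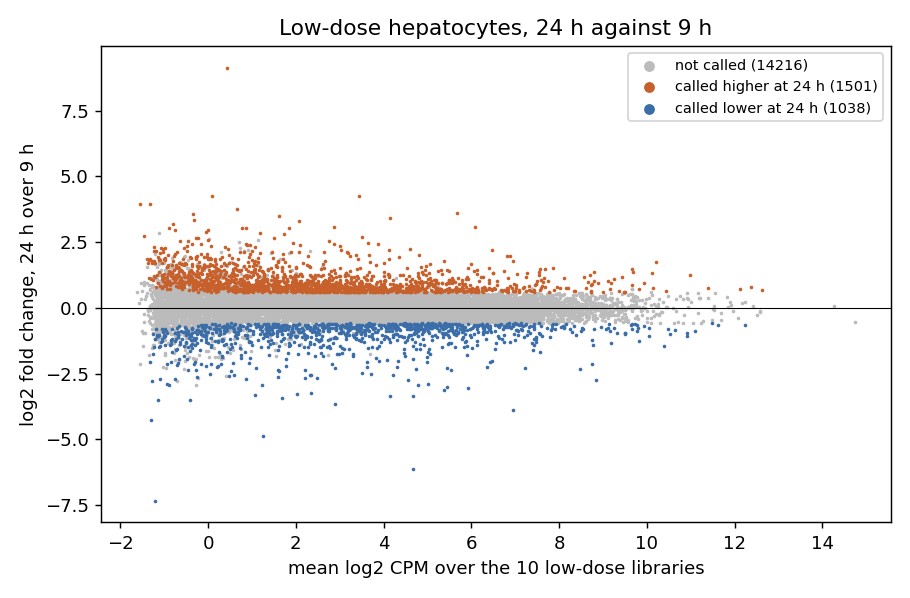
Change from 9 to 24 h in low-dose hepatocytes for each of the 16755 transcripts tested. The horizontal axis is the mean log2 CPM over the 10 libraries, the vertical axis is the log2 fold change of 24 h over 9 h, and colours mark the 1501 DEGs that rose and the 1038 that fell; in the least abundant group of 3351 transcripts, 14.8% were DEGs that rose and 7.13% were DEGs that fell.

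The share and direction of the DEGs went with abundance. The transcripts tested were divided into 5 groups of equal size by their mean log2 CPM. In the least abundant group, 21.9% were DEGs, 14.8% higher and 7.13% lower. In the most abundant group, 9.76% were DEGs, 4.36% higher and 5.40% lower. The groups between them held 21.04, 13.04 and 10.03% DEGs in order of rising abundance, and the median log2 fold change went from 0.14 in the lowest group through 0.11, 0.022 and -0.051 to -0.043 in the highest. The share of DEGs showed no such order by transcript length. From the shortest to the longest of 5 such groups, 14.6, 15.9, 15.9, 14.8 and 14.6% were DEGs. The median log2 fold changes stayed between 0.007 and 0.035. In the same order, 8.49, 8.69, 9.35, 8.72 and 9.55% were higher, and 6.08, 7.22, 6.60, 6.06 and 5.01% were lower. The share that was lower was thus smallest in the longest group.

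The 8 largest increases and the 8 largest decreases were taken among DEGs whose time points did not overlap and whose mean log2 CPM was 3 or more, of which 548 increases and 538 decreases were eligible. CPM are counts scaled to the library size after TMM normalization. ENSRNOT00000028487, a transcript of 2050 bases, had 2.42, 3.22, 3.30, 3.21 and 2.90 CPM at 9 h and 30.9, 35.5, 30.5, 31.2 and 32.96 CPM at 24 h. Every library at 24 h was thus above every library at 9 h, with little spread inside either group, although some of its reads were divided with other transcripts. The log2 fold change was 3.42 ± 0.083 (SE), with an edgeR adjusted p-value of 1.42e-10. ENSRNOT00000023664, of 1415 bases, had 12.5, 13.6, 14.4, 16.7 and 14.1 CPM at 9 h and 108.97, 107.6, 122.8, 140.1 and 122.4 CPM at 24 h. Its groups were as clearly apart, and all its counts were whole numbers, so that none of its reads was divided with another transcript. The log2 fold change was 3.08 ± 0.091 (SE), with an edgeR adjusted p-value of 6.39e-10.

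Among the decreases, ENSRNOT00000008840, a transcript of 486 bases, had 207, 230, 256, 243 and 224 CPM at 9 h and 15.5, 14.8, 15.8, 15.6 and 16.6 CPM at 24 h. The groups did not overlap, and the libraries at 24 h were nearly equal. It fell 14.8-fold, and the log2 fold change was -3.89 ± 0.061 (SE), with an edgeR adjusted p-value of 8.08e-12. The largest of the 8 decreases was that of ENSRNOT00000028283, of 2918 bases, with 60.4, 32.8, 13.1, 54.3 and 89.3 CPM at 9 h. At 24 h it had 0 CPM in 3 libraries, 0.333 CPM in MS-113 and 3.23 CPM in MS-115. The groups did not overlap, but the values at 9 h spread widely. The log2 fold change of -6.13 ± 0.81 (SE; edgeR adjusted p-value 7.38e-05) therefore depended on single libraries and was -9.04 when MS-115 was left out.

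The other members of these sets of 8 moved in the same manner. The remaining increases had log2 fold changes between 2.25 and 4.26, and the remaining decreases between -3.36 and -2.92. The largest increase rested on a 9 h group in which 4 libraries had at most 0.034 CPM and MS-100 had 5.28 CPM, and its log2 fold change of 4.26 became 9.81 without that library. Of the 8 increases, 5 belonged to the list of hepatocyte-depleted transcripts defined below, and of the 8 decreases, 5 belonged to the hepatocyte-enriched list. The mean log2 CPM behind this choice is taken over both time points, so that a transcript could reach it through the time point at which it was high, and these memberships are a description only.

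**Figure D2:**
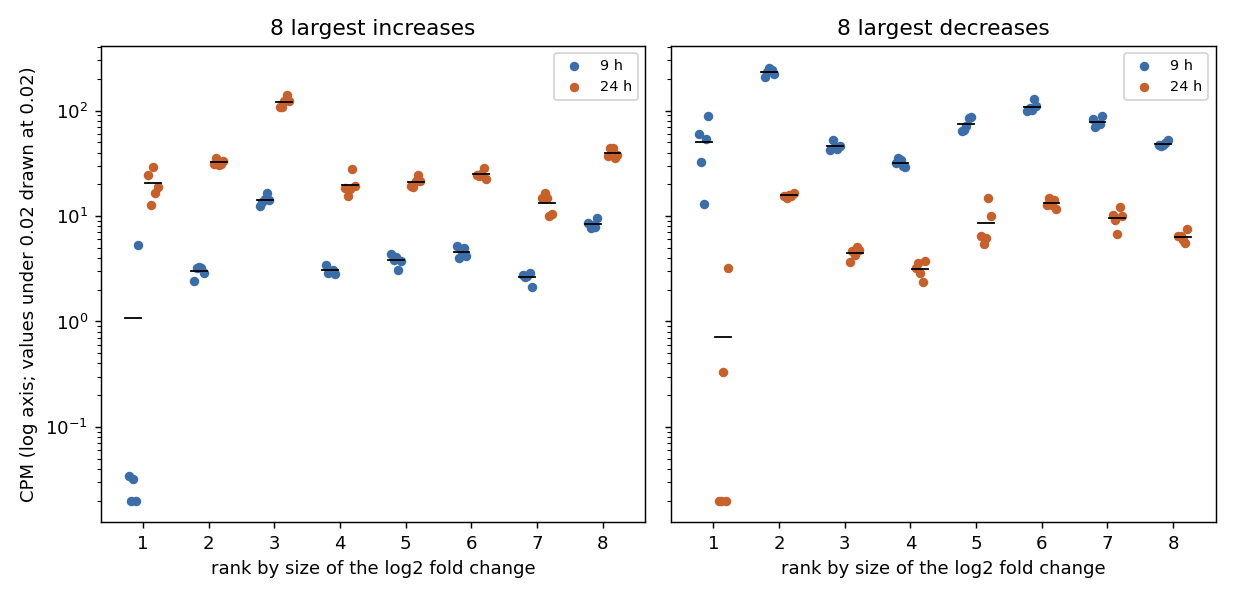
CPM (log axis) of the 8 largest increases and the 8 largest decreases in each of the 10 low-dose libraries, ranked by size of the log2 fold change. Points are libraries at 9 h and 24 h, black lines are group means, and values under 0.02 are drawn at 0.02; in the increases every 24 h point lies above every 9 h point, and in the decreases below.

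Of the 5 transcripts with the highest mean TPM, 1 was a DEG, where 15.2% of all transcripts tested were. It rose from 4878 ± 160 to 7758 ± 400 CPM (SD, n = 5), which is a log2 fold change of 0.67 ± 0.039 (SE; edgeR adjusted p-value 1.43e-07). The transcript with the highest TPM, which was hepatocyte-enriched, went from 32472 ± 407 to 22181 ± 1503 CPM (SD, n = 5) without overlap between the groups. Its log2 fold change of -0.55 ± 0.043 (SE; edgeR adjusted p-value 1.35e-06) was short of the threshold on size. The other 3 had log2 fold changes of 0.078, -0.10 and -0.24 with edgeR adjusted p-values of 0.371, 0.465 and 0.189, and their groups overlapped.

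Lists of transcripts by cell type were taken from vehicle libraries at 9 h, none of which entered the comparison. The hepatocyte libraries among them share cell type and time with the low-dose libraries at 9 h. A transcript that was high or low in hepatocytes only at 9 h could thus be listed, and then fall or rise. How much this added to the changes of the lists was not tested. A hepatocyte-enriched transcript had a mean of at least 10 TPM in vehicle hepatocytes, and its lowest value there was at least 10 times its highest value in renal cells and cardiomyocytes, after 0.1 TPM had been added to the latter. A hepatocyte-depleted transcript had at least 10 TPM in both other cell types and its lowest value there was at least 10 times its highest value in hepatocytes, with the same 0.1 TPM added. Shared transcripts lay within 2-fold of their median in all 15 vehicle libraries. Lists of renal-enriched and cardiomyocyte-enriched transcripts were made in the same way. As a check of the labelled cell type, the 480 hepatocyte-enriched transcripts held 15.4 to 15.8% of the TPM in the low-dose libraries at 9 h. They held between 0.0683 and 0.612% in the 60 renal and cardiomyocyte libraries of all conditions. The vehicle libraries at 9 h among these 60 chose the list, so that their low shares follow from the rule. Both the lowest (MS-145) and the highest share (MS-164) came from exposed libraries, which did not choose it.

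Hepatocyte-enriched transcripts fell between 9 and 24 h. Of their 475 members tested, 191 were lower at 24 h (40.2%, against 6.2% of all transcripts tested) and 39 were higher (8.21%, against 8.96%). The median log2 fold change was -0.43, with an interquartile range from -0.93 to 0.094. Together the 480 members held 15.6% ± 0.160 of the TPM at 9 h and 12.3% ± 0.636 at 24 h (SD, n = 5). The 24 h libraries ranged from 11.7 to 13.3%, below every 9 h library. In bulk RNA, fewer cells of a type and less RNA per cell cannot be told apart.

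The fall was spread over the list. When the 475 members were divided into 3 equal groups by their level in vehicle hepatocytes, 38.0% of the least abundant, 44.9% of those in the middle and 37.7% of the most abundant were lower, and the median log2 fold changes were -0.30, -0.44 and -0.45. The member called lower with the highest TPM in vehicle hepatocytes at 9 h went from 3829.9 ± 187 to 2459 ± 226 CPM (SD, n = 5), a 1.56-fold decrease. Members that rose were found among abundant transcripts too. The 3 with the highest TPM in vehicle hepatocytes at 9 h rose 1.55-fold, 1.62-fold and 2.59-fold, and the first of these was below the threshold on size when MS-115 was left out. The list was therefore not uniform, and 332 of the 475 members had a log2 fold change below 0.

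Hepatocyte-depleted transcripts were higher at 24 h, from a very low level. All 455 members together held 0.0692% ± 0.00246 of the TPM at 9 h and 0.112% ± 0.00619 at 24 h (SD, n = 5), and the lowest 24 h library (0.106%) was above the highest 9 h library (0.0735%). Only 275 members passed the filter on low counts, and a member could pass through its 24 h libraries alone. Of those tested, 43.3% were higher and 6.18% lower, beside 8.96 and 6.2% of all transcripts tested and 14.8 and 7.13% of the least abundant of the 5 groups by abundance. Members were therefore also counted by a level that the low-dose libraries did not set. Of the members with a mean of at least 0.5 TPM in vehicle hepatocytes at 9 h, tested or not, 79 were higher (42.7%) and 12 were lower (6.49%). The shares are of all members at this level, and the median log2 fold change, over those of them that were tested, was 0.55.

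Transcripts enriched in a single other cell type were few in hepatocytes. With the same minimum of 0.5 TPM, 15 of 62 renal-enriched transcripts were higher and 8 lower, and 13 of 31 cardiomyocyte-enriched transcripts were higher and 4 lower. These were 24.2 and 12.9% of the renal-enriched and 41.9 and 12.9% of the cardiomyocyte-enriched members, beside 8.96 and 6.2% of all transcripts tested and 14.8 and 7.13% of the least abundant group. The renal-enriched list as a whole took 0.0348% ± 0.00136 of the TPM at 9 h and 0.0375% ± 0.00169 at 24 h (SD, n = 5), and its libraries overlapped between the time points. The cardiomyocyte-enriched list rose from 0.01002% ± 0.000746 to 0.0140% ± 0.000702 (SD, n = 5), without overlap. Whether these shares come from other cells in the cultures or from the hepatocytes was not tested. Shared transcripts changed least, with 2.003% higher and 2.31% lower of the 4544 tested and a median log2 fold change of -0.047.

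**Figure D3:**
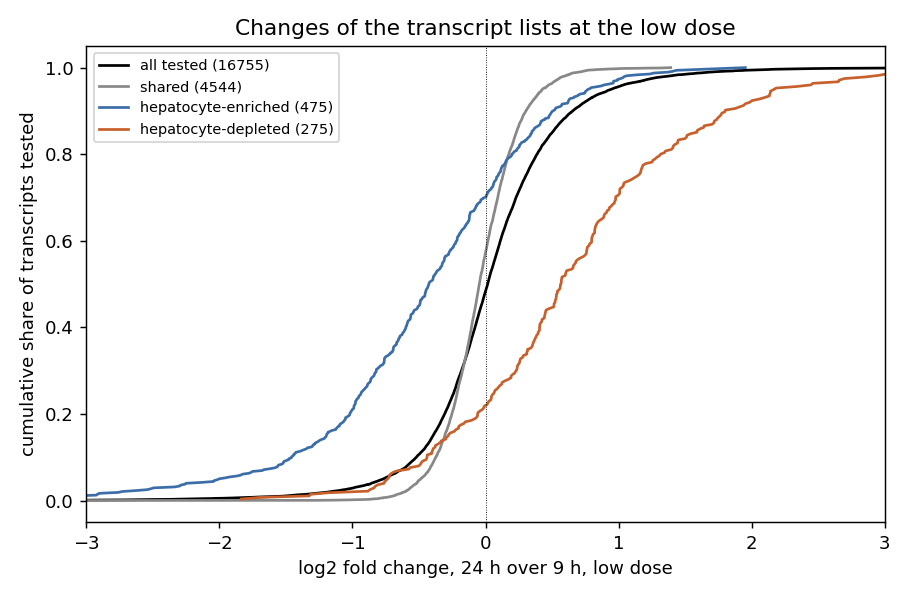
Cumulative share of transcripts by their log2 fold change from 9 to 24 h in low-dose hepatocytes, for all 16755 transcripts tested and for the shared, hepatocyte-enriched and hepatocyte-depleted lists. The axis ends at a log2 fold change of 3 in either direction, beyond which 36 transcripts lie; the hepatocyte-enriched curve is shifted to the left (median -0.43) and the hepatocyte-depleted curve to the right (median 0.57 over the 275 members tested).

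The change over time at the low dose was next set beside that in the other hepatocyte groups. The high-dose comparison shares no library with the low-dose comparison. Of the 2538 low-dose DEGs that were also measured there, 2376 had a log2 fold change of the same sign at the high dose (93.6%), against 75.5% of the 16748 transcripts tested in both comparisons. Signs were counted whether or not the high-dose change passed the test. The DEGs that rose at the low dose had a median log2 fold change of 0.90 there and 0.72 at the high dose, and those that fell had medians of -0.86 and -0.74. Over the 10194 transcripts whose mean log2 CPM over the 20 libraries of both doses was 3 or more, Pearson's r between the log2 fold changes was 0.74, and over all 17710 tested it was 0.50. These are correlations across transcripts, which are not independent, and the libraries of both doses share the culture system.

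The difference between the doses was tested as an interaction in 1 edgeR fit of the 20 libraries. It was called for 712 of 17710 transcripts (4.02%). For 423 of them (2.39%) the change from 9 to 24 h was more positive at the low dose, and for 289 (1.63%) it was more negative. Of the 712, 392 had fitted log2 fold changes of opposite sign at the 2 doses, counted whatever their size, 130 had the same sign and a larger value at the low dose, and 190 the same sign and a smaller one. The doses lay further apart at 24 h than at 9 h for 590 of the 712 (82.9%) and for 62.3% of all 17710 tested. The median distance between them on the log2 scale was 0.30 at 9 h and 0.93 at 24 h for the 712, and 0.21 and 0.29 for all tested. The 712 were chosen for a gap between the doses that changed over time, so that their values only describe them. Low-dose DEGs made up 267 of the 712 (37.5%), which was 10.5% of the low-dose DEGs tested, beside 4.02% of all transcripts tested. The low-dose change is 1 side of the difference, so that a larger share among low-dose DEGs is partly built in.

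ENSRNOT00000014603, of 2061 bases and on the hepatocyte-depleted list, rose at the low dose and had a log2 fold change of -0.040 at the high dose. It had 3.90, 3.67, 4.34, 3.92 and 4.04 TPM at 9 h and 20.1, 21.7, 24.2, 9.34 and 14.6 TPM at 24 h. At the high dose it had 3.79 to 5.70 TPM at 9 h and 3.31 to 6.54 TPM at 24 h, and these overlapped. The difference between the changes was 2.21 ± 0.28 on the log2 scale (SE; edgeR adjusted p-value 5.81e-05). Vehicle cultures went from 4.19 to 5.49 TPM at 9 h to 39.5 to 47.7 TPM at 24 h in 4 libraries, so that the low-dose libraries at 24 h lay between the high-dose and the vehicle libraries.

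ENSRNOT00000012537, of 2338 bases, fell at the low dose and had a log2 fold change of 0.29 at the high dose. It had 23.3, 22.3, 21.6, 22.2 and 21.7 TPM at 9 h and 6.66, 5.44, 5.18, 5.01 and 6.60 TPM at 24 h. All high-dose libraries, from 21.6 to 24.7 TPM at 9 h and from 23.7 to 38.7 TPM at 24 h, and the vehicle libraries, from 16.7 to 18.6 TPM at 9 h and from 20.03 to 25.4 TPM in 4 libraries at 24 h, stayed above the low-dose libraries at 24 h. The low-dose change differed from the high-dose change by -2.24 ± 0.18 on the log2 scale (SE; edgeR adjusted p-value 4.67e-07), and from the vehicle change by -2.56 (edgeR adjusted p-value 2.37e-12).

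The most extreme differences between the doses, among those called with a mean log2 CPM of 3 or more, were less even across libraries. ENSRNOT00000074325 had 1.70, 3.43, 4.71, 4.65 and 32.9 TPM at 9 h and 259, 152.7, 82.0, 65.9 and 12.6 TPM at 24 h at the low dose, so that its time points overlapped. At the high dose it ranged from 34.2 to 159.6 TPM at 9 h and from 2.80 to 104.6 TPM at 24 h, and the difference between the changes was 4.19 ± 1.18 (SE; edgeR adjusted p-value 0.0225). ENSRNOT00000028283, described above, ranged from 9.19 to 46.1 TPM at the high dose at 9 h and from 0 to 20.05 TPM at 24 h, and its difference was -4.24 ± 1.30 (SE; edgeR adjusted p-value 0.0365). Counts of these 2 transcripts, and of ENSRNOT00000014603 and ENSRNOT00000012537, were not whole in every library, so that some of their reads were divided with other transcripts.

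At 24 h the hepatocyte-enriched transcripts held 11.7 to 13.3% of the TPM in low-dose and 11.7 to 13.0% in high-dose libraries, from 15.4 to 15.8% and 15.2 to 16.4% at 9 h. The list had a median log2 fold change of -0.43 after low-dose and -0.56 after high-dose exposure. The interaction was called positive for 55 of its 475 members, against 2.39% of all transcripts tested, and negative for 9, against 1.63%. Hepatocyte-depleted transcripts held 0.106 to 0.122% of the TPM at the low dose at 24 h and 0.110 to 0.129% at the high dose, and the interaction was called positive for 13 and negative for 29 of the 326 members tested, beside 2.39 and 1.63% of all transcripts tested.

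**Figure D4:**
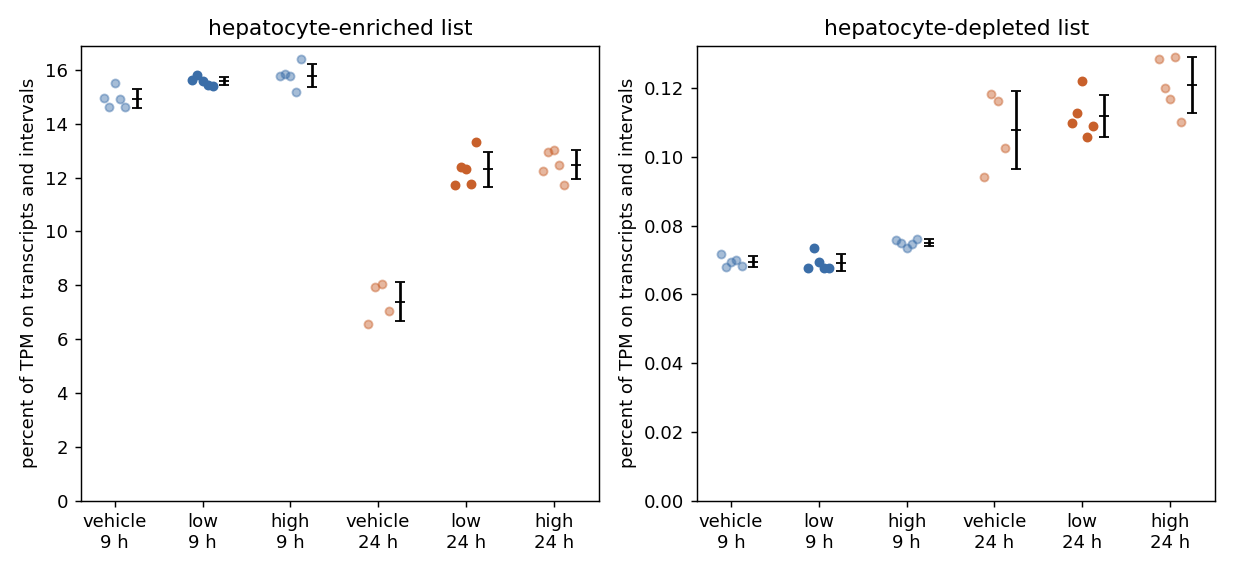
Percent of all TPM held by the 480 hepatocyte-enriched and the 455 hepatocyte-depleted transcripts in each hepatocyte library, by dose and time. Points are libraries, bars are means ± SD (n = 5, and 4 for vehicle at 24 h, without MS-183); low-dose libraries lie at 15.4 to 15.8% at 9 h and at 11.7 to 13.3% at 24 h on the left, and at 0.0678 to 0.0735% and 0.106 to 0.122% on the right.

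The change over the same interval was also compared with that in vehicle cultures. The comparison used 4 of their 5 libraries at 24 h, since library MS-183 had 8.33% of its counts on transcripts. Of these 4, MS-181 had 84.1% of its counts on transcripts and the others had 91.5 to 93.5%. The vehicle libraries at 24 h are numbered MS-181 to MS-185, outside the range MS-91 to MS-120 of all other hepatocyte libraries, and whatever goes with these numbers cannot be told apart from the vehicle cultures at 24 h. The difference between low dose and vehicle in the change from 9 to 24 h was called for 6706 of 17892 transcripts (37.5%), positive for 3731 (20.9%) and negative for 2975 (16.6%). With MS-183 kept, it was called for 5481.

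Of the 2539 low-dose DEGs, 1427 had a log2 fold change of the same sign in vehicle cultures (56.2%, against 49.9% of all 16755 transcripts tested). The difference was called for 1575 of these DEGs (62.03%), against 37.5% of all 17892 tested. The low-dose change is 1 side of this difference, so that a larger share among low-dose DEGs is partly built in. The DEGs that rose at the low dose had a median log2 fold change of -0.098 in vehicle cultures, and 696 of these 1501 had a value above 0 there. The DEGs that fell at the low dose had a median of -0.68, and 731 of these 1038 had a value below 0 there. Over transcripts whose mean log2 CPM was 3 or more, taken over the 19 libraries of this fit, Pearson's r was 0.22 (10259 transcripts), and over all 17892 tested it was 0.12, again across transcripts that are not independent. Low dose and vehicle lay further apart at 24 h than at 9 h for 6352 of the 6705 transcripts called for which both distances could be computed (94.7%). The same held for 80.5% of all 17890 tested with both distances. The transcripts called were chosen for a gap that changed over time, so that their count only describes them.

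ENSRNOT00000023664 and ENSRNOT00000008840 are given at the level of libraries as 1 increase and 1 decrease, and do not stand for the others. In vehicle cultures the 8 largest low-dose increases had log2 fold changes from -1.48 to 3.38. The 8 largest low-dose decreases had values from -13.7 to -0.21 there. ENSRNOT00000023664 went from 12.5 to 16.0 TPM at 9 h to 100.3 to 135.7 TPM at 24 h at the low dose, and from 7.14 to 10.2 TPM at 9 h to 72.1 TPM or more in every library at 24 h at the high dose. In vehicle cultures it had 15.3 to 19.98 TPM at 9 h and 7.46 to 9.17 TPM at 24 h, and every vehicle library at 24 h was below every one at 9 h. ENSRNOT00000008840 fell in all 3 treatments, from 829 to 988 TPM to 55.4 to 63.8 TPM at the low dose, from 999 to 1197 TPM to 88.0 to 110.3 TPM at the high dose, and from 742 to 954 TPM to 45.7 to 72.9 TPM in vehicle cultures.

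The hepatocyte-enriched transcripts held 14.6 to 15.5% of the TPM in vehicle cultures at 9 h. In 4 vehicle libraries at 24 h they held 6.55 to 8.06%, below all low-dose libraries at 24 h. The lowest share was that of MS-181, and the others of these 4 held 7.03 to 8.06%. MS-181 had fewer of its counts on transcripts, and TPM shares include the genomic intervals. The median log2 fold change of the hepatocyte-enriched transcripts was -1.35 in vehicle cultures and -0.43 at the low dose. The difference was called positive for 293 and negative for 46 of the 475 members, beside 20.9 and 16.6% of all transcripts tested. The vehicle libraries at 9 h chose this list and also enter the vehicle change, so these values are a description only. The ranges of the hepatocyte-depleted list overlapped between vehicle and low dose at both time points. Its members held 0.0680 to 0.0718% of the TPM in vehicle cultures at 9 h. At 24 h they held 0.0942% (MS-181) to 0.118% in 4 vehicle libraries and 0.106 to 0.122% in the low-dose libraries. The median log2 fold change was 0.74 in vehicle cultures, over 328 members tested there, and 0.57 at the low dose, over the 275 tested there, so that these medians cover different members. The difference was called positive for 71 and negative for 99 of the 328. The vehicle libraries at 9 h chose this list too.

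**Figure D5:**
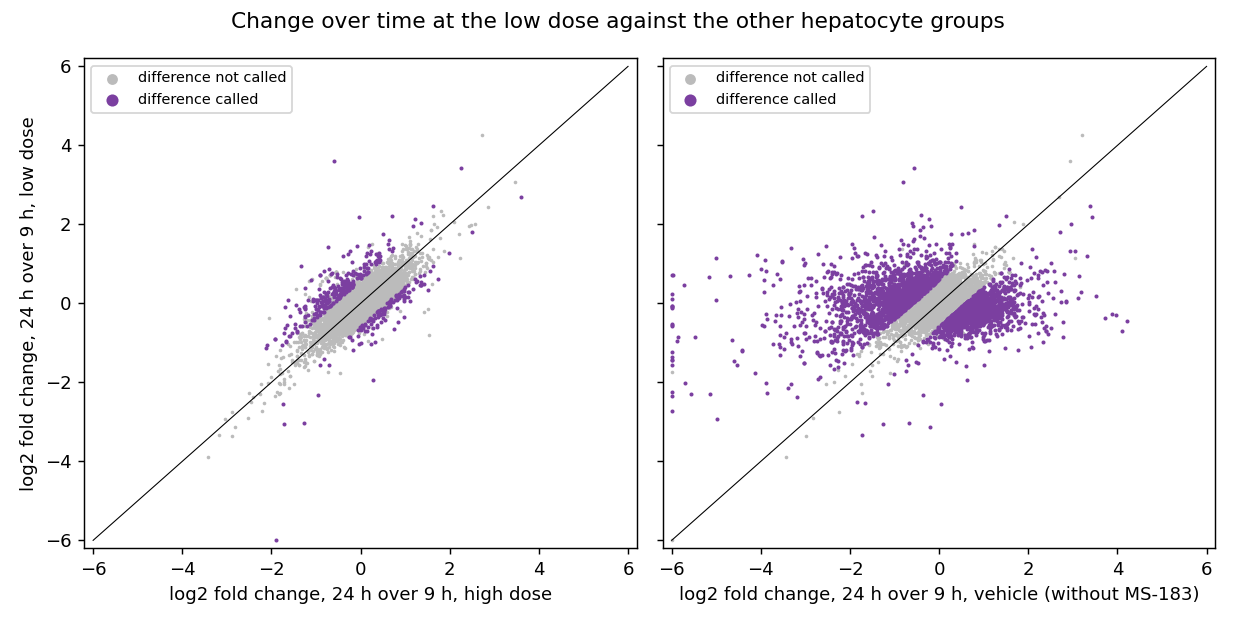
Log2 fold change from 9 to 24 h at the low dose (vertical axis) against that at the high dose (left) and in vehicle cultures (right), for the 10264 transcripts whose mean log2 CPM over the 10 low-dose libraries was 3 or more. Purple marks transcripts called for the difference, 381 on the left and 3930 on the right, the line marks equal change, and points beyond a log2 fold change of 6 are drawn at the edge (1 and 20 transcripts); points follow the line on the left and spread along the horizontal axis on the right.

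Distances between single libraries placed the low-dose time points among the other groups. The distance was the mean absolute difference in log2 CPM over 18452 transcripts. Its median was 0.43 between low-dose libraries at 9 h, 0.44 between those at 24 h, and 0.63 between the time points (0.60 to 0.67 over 25 pairs), so that no pair across the time points was as close as any pair within them. At 9 h, the low-dose libraries were at a median of 0.51 from vehicle and 0.56 from high-dose libraries. At 24 h, they were at 0.63 from high-dose libraries and 0.95 from vehicle libraries. The vehicle libraries at 24 h were at least 0.83 from every library of the other hepatocyte groups.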

How the data were processed

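The 10 low-dose hepatocyte libraries were poly-A-enriched and sequenced in pairs by the authors, who deposited for each library an estimated count and a TPM per target. The submitters' processing notes name kallisto 0.42.4 and Rnor_6.0. Estimated counts need not be whole, because reads shared by several transcripts are divided among them. The deposited TPM are scaled by effective length over all targets, genomic intervals included, and keep no depth. Depth was 26782233 to 33654248 estimated counts in the 10 libraries, so that counting error is small except in rare transcripts.

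Estimated counts of the 40071 transcripts were rounded and tested with edgeR 4.0.16 under R 4.3.3 (filterByExpr, TMM, estimateDisp, glmQLFit, glmQLFTest) and Benjamini-Hochberg adjustment over all transcripts tested. The thresholds on adjusted p-value (0.05) and natural-log fold change (0.41) are those of the study. The SE of a log2 fold change was derived from the fitted change and edgeR's F statistic. Both time points were fitted alone, and the differences from high dose and vehicle as interactions in fits of 20 and 19 libraries. The functions were tested on simulated data. Alternatives were DESeq2 1.42.0, limma 3.58.1 on log2(CPM + 0.5) and on the deposited log2(TPM + 1), upper-quartile normalization, other filters and thresholds, other list thresholds and each library left out in turn. After the data were seen, transcripts with whole counts only (within 0.001) and list members with at least 0.5 TPM in vehicle hepatocytes were added.

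Transcripts were chosen by rule, and not all of them are described in the text. The rule took the 8 largest increases and 8 largest decreases whose groups did not overlap and whose mean log2 CPM was 3 or more. It also took the 5 with the highest mean TPM. At the same minimum of CPM, it took the 3 most positive and 3 most negative differences between doses. To these it added the 3 most abundant hepatocyte-enriched and the 2 most abundant hepatocyte-depleted transcripts called in each direction. The comparison, the lists and this rule were chosen with earlier results of these data known. Planned gene and marker lists could not be applied, since 0 transcripts were matched to a gene name. Replicate numbers are unique to each library, so that the labels give no pairing, and samples were treated as unpaired.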

Additional observations from a re-analysis of the deposited data

Results flagged for a closer look

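The 88 sets of 5 libraries examined covered depth, list shares and the transcripts chosen by rule, at each time point. Of these sets, 8 held a library whose gap to its nearest neighbour exceeded Dixon's 95% critical value, where about 4.4 are expected by chance. At 9 h, MS-100 had 5.28 CPM of ENSRNOT00000091297, the largest increase among non-overlapping DEGs whose mean log2 CPM was 3 or more, against 0 to 0.034 CPM in the other 4 libraries, and 27.1 CPM of ENSRNOT00000074325 against 1.33 to 3.82 CPM. MS-96 had 0.0735% of its TPM on the hepatocyte-depleted list, against 0.0678 to 0.0694%. At 24 h, MS-114 had 28.1 CPM of ENSRNOT00000005677 against 15.6 to 19.1 CPM, 19498 CPM of ENSRNOT00000003921, the transcript with the highest TPM, against 22763 to 23026 CPM, and 3052 CPM of the hepatocyte-enriched ENSRNOT00000045628 against 3840.2 to 4031 CPM. MS-115 had 3.23 CPM of ENSRNOT00000028283 against 0 to 0.333 CPM. MS-113 had 22598 transcripts with at least 1 count, against 22223 to 22328 in the other 4 libraries.

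The change from 9 to 24 h differed between the low and the high dose for 712 transcripts and between the low dose and vehicle for 6706 (edgeR interaction terms). The most positive differences from the high dose among transcripts whose mean log2 CPM was 3 or more were 4.19 for ENSRNOT00000074325, 2.21 for ENSRNOT00000014603 and 2.16 for ENSRNOT00000082442. The last 2 were also higher at 24 h than at 9 h in the 4 vehicle libraries, by log2 fold changes of 3.43 and 1.26. The most negative differences were -4.24 for ENSRNOT00000028283, -2.24 for ENSRNOT00000012537 and -1.77 for ENSRNOT00000061950, which fell at both doses.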

How the results depend on the processing

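The 2539 low-dose DEGs became 8296 without a fold threshold, 984 at 2-fold, 1511 with limma on log2(TPM + 1), and 1117 of the 6567 tested with whole counts only; leaving out a library in turn gave 2419 to 2681. The 712 differences from the high dose became 2262, 260 and 392 (no threshold, 2-fold, whole counts) and 627 to 843 with a library left out, and the 6706 from vehicle became 10338 and 3985 (no threshold, 2-fold) and 6509 to 6837. Upper-quartile scaling moved the median over all transcripts of the latter from 0.038 to 0.13, and that of the low-dose change from 0.016 to 0.056. Of the low-dose DEGs, 59.1% were higher, against 64.9% with upper-quartile scaling and 53.3% with limma on log2(TPM + 1). With the list threshold at 5-fold, 51 renal-enriched transcripts were higher and 22 lower, 32 cardiomyocyte-enriched higher and 11 lower, and 29 hepatocyte-depleted lower; at 20-fold, 8 renal-enriched were lower, 6 cardiomyocyte-enriched higher and 3 lower, and 74 hepatocyte-depleted higher. These thresholds change how many transcripts a list holds. With at least 0.5 TPM in vehicle hepatocytes, 79 hepatocyte-depleted and 15 renal-enriched were higher and 8 renal-enriched lower. The hepatocyte-enriched list gave 187 to 198 lower and 34 to 40 higher with a library left out. Of the transcripts chosen by rule, ENSRNOT00000046108 (-0.17 to 0.0013, not called) changed sign without MS-97, and ENSRNOT00000024160 missed the fold threshold (0.59) without MS-115. No paired analysis was possible because replicate numbers are unique to each library.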

Other observations

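One transcript was absent at 9 h and present at 24 h in every library, and one showed the reverse, with at least 10 counts in each library where present; both were named after their values were seen. ENSRNOT00000089451, of 876 bases, had 0 counts in all 5 libraries at 9 h and 77, 98, 80, 71 and 23 counts at 24 h. Against the level of 3 counts per library that a count of 0 allows, it was at least 23.9-fold higher at 24 h. ENSRNOT00000032780, of 3395 bases, had 21, 27, 16, 20 and 15 counts at 9 h and 0 counts in all 5 libraries at 24 h, at least 6.47-fold lower. These bounds cover counting error only, and whether reads were assigned to another transcript of the same gene was not tested.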
